A study of Saccharomyces cerevisiae with 15 samples.

Results

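The 8 yeast genes described here encode succinate dehydrogenase, its assembly factor Sdh5 and the paralogues of its subunits. They were listed by systematic name rather than by a cut on measured values, with earlier results of these data known. They are 8 of the 7127 genes counted in every library. The genes are SDH1 (YKL148C), SDH2 (YLL041C), SDH3 (YKL141W), SDH4 (YDR178W), SDH5 (YOL071W), the SDH1 paralogue YJL045W, the SDH3 paralogue SHH3 (YMR118C) and the SDH4 paralogue SHH4 (YLR164W). Messenger RNA (RNA-seq) and ribosome-protected mRNA fragments (ribosome profiling, here "footprints") had been counted in 15 libraries of Saccharomyces cerevisiae. The wild type was UCC8773, a Mother Enrichment Program strain in which estradiol disables the further division of daughter cells, and the mutant was a derivative of that strain lacking CTH2, annotated as TIS11 in the R64 genome. All cells were labelled with biotin, grown in YPD with 1 µM 17β-estradiol and collected on magnetic beads, young cells after 2 h and replicatively old mothers after 30 h. There were 2 libraries for every combination of strain, age and assay apart from a single RNA-seq library of old deletion cells. The study asked whether loss of Cth2 lengthens replicative lifespan through mitochondrial function.

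Succinate dehydrogenase, or complex II, oxidises succinate to fumarate in the tricarboxylic acid (TCA) cycle and passes the electrons to ubiquinone in the respiratory chain of the inner mitochondrial membrane. Sdh1 is the flavoprotein that holds the active site, Sdh2 carries the iron-sulfur clusters, and Sdh3 and Sdh4 anchor the complex in the membrane and bind ubiquinone. Sdh5 is needed for the attachment of flavin to Sdh1, and Sdh3 is also a subunit of the TIM22 translocase, which inserts carrier proteins into the same membrane. Cth2 is an RNA-binding protein made at low iron that binds AU-rich elements downstream of coding sequences and promotes decay of mRNAs for iron-using proteins, SDH4 among them. In yeast grown on glucose, many genes of respiration and of the use of other carbon sources are repressed.

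The 8-base motif TATTTATT, the DNA form of the AU-rich element bound by Cth2, was searched on the coding strand only, within 300 nt after the stop codon. It occurred after 6 of the 8 genes, against 7.73% of 6002 protein-coding genes. With overlapping copies counted, there were 9 copies after SDH1, 5 after YJL045W, 4 after SDH4 and 1 each after SDH2, SDH3 and SHH4. None lay after SDH5 or SHH3, where the window ran into a neighbouring gene, as those of SDH4 and SHH4 also did. The windows of 30 bases below, from RefSeq on build R64, show the place of the motif in each gene, with the motif in capitals. They lie at chrXI:168989-169018 (minus strand, SDH1), chrXII:52950-52979 (minus, SDH2), chrXI:180343-180372 (plus, SDH3), chrIV:818606-818635 (plus, SDH4), chrX:357929-357958 (plus, YJL045W) and chrXII:494468-494497 (plus, SHH4). A match describes the letters and is not a measured binding site.
SDH1: attTATTTATTTATTTATTTATTactttca
SDH2: tctatgactatTATTTATTtatcattggca
SDH3: aataccgcactTATTTATTctttaagatct
SDH4: atatttactagTATTTATTTATTattattt
YJL045W: ttctTATTTATTTATTTATTTATTttggag
SHH4: taataaccgatTATTTATTgcttattttac
SDH1 and YJL045W, which encode related flavoproteins, carried the longest unbroken runs of overlapping copies, and SDH4 had a run of 2. The run of SDH1 held 7 copies and is shown in part, and that of YJL045W held 4, beginning 5 bases after the stop codon. The SHH4 window overlapped the annotated gene YLR165C.

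Upstream sequence is shown for SDH1 and YJL045W, whose footprint changes with age had opposite signs. The change of SDH1 did not pass the test in either strain. The window ran from 400 to 151 bases before the start codon and was searched on both strands. CCAAT, the core bound by the Hap2/3/4/5 complex, an activator of respiratory genes, occurred upstream of 4 of the 8 genes and of 38.8% of 6001 protein-coding genes. CCNNNNNNCCG, the core of the carbon source-responsive element bound by Cat8 and Sip4, occurred upstream of 3 of the 8 genes and in 12.4% of windows. CCCCT, found in none of the 8, was present in 20.0% of windows, and GGGG, found in 3 of the 8, in 39.8%. In the R64 RefSeq sequences below, read on the coding strand at chrXI:171280-171529 (minus strand, SDH1) and chrX:355624-355873 (plus strand, YJL045W), capitals mark CCAAT and CCNNNNNNCCG on either strand.
SDH1: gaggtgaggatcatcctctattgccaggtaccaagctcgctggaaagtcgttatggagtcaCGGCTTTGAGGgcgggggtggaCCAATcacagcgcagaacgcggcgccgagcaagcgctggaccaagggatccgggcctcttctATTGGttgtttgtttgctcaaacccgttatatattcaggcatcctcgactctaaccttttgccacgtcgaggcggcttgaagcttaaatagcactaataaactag
YJL045W: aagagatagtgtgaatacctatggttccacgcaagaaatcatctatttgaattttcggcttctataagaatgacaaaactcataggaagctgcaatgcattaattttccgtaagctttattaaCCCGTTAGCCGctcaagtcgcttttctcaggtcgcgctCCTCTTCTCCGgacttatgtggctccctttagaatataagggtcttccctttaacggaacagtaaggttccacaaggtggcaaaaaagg
YJL045W had 2 copies of CCNNNNNNCCG, beginning 277 and 239 bases before the start codon, and no CCAAT. SDH1 had 2 of CCAAT and 1 of CCNNNNNNCCG, and no copy of one motif overlapped a copy of the other.

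All 8 genes are protein-coding with 1 coding exon in R64. SDH1 lies at chrXI:169207-171129 (minus strand), SDH2 at chrXII:53131-53931 (minus), SDH3 at chrXI:179667-180263 (plus) and SDH4 at chrIV:817950-818495 (plus). SDH5 lies at chrXV:196507-196995 (plus), YJL045W at chrX:356024-357928 (plus), SHH3 at chrXIII:502144-502734 (minus) and SHH4 at chrXII:493883-494389 (plus). The sequences of the paralogues differed, and whether reads with mismatches were counted for the wrong paralogue was not tested. SDH1 and YJL045W had 75.6% identical coding bases and 85.0% identical residues, SDH3 and SHH3 45.8% and SDH4 and SHH4 52.7% identical residues. No stretch of 28 bases was shared within a pair, and none of any of the 8 coding sequences was repeated elsewhere in the genome.

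Total counts ranged from 1629345 to 6198680 per library. Levels are given as CPM, the count relative to library size, after TMM scaling between libraries. The floor set for a gene with no counts was 3 counts. Relative to the total counts, without TMM scaling, that floor is 0.484 to 1.84 CPM. TIS11, the deleted gene, had 28 to 516 counts in wild-type libraries and 1 to 17 in deletion libraries. Young libraries of a group differed from each other more than old ones (SD across genes of the log2 difference 0.57 to 0.62 against 0.24 to 0.27), and wild-type library 1 resembled deletion library 2. The summed footprints of 10 glucose-repressed genes were 460 and 179 CPM for young wild type, 174 and 507 CPM for the young deletion strain, and 264 to 429 CPM in the 4 old libraries. Among them HXT7, a hexose transporter gene, was at 141 and 33.1 CPM and then 40.0 and 151 CPM, and the other 9 summed to 319 and 146 CPM and then 134 and 355 CPM. In mRNA HXT7 was 358 and 78.5 CPM in young wild type and 62.2 and 307 CPM in young deletion cells, and the other 9 summed to 203 and 167 CPM and then 176 and 254 CPM, against 257 to 298 CPM in the old libraries. Of 8 daughter-cell markers, none was at 0 in any library, and their footprint sum was 746 and 886 CPM in old deletion cells against 1351 to 2209 CPM in the other 6 libraries. The part of either marker list in the results was not tested. In bulk samples, a change in the makeup of the cells and a change in RNA per cell cannot be told apart.

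**Figure D1:**
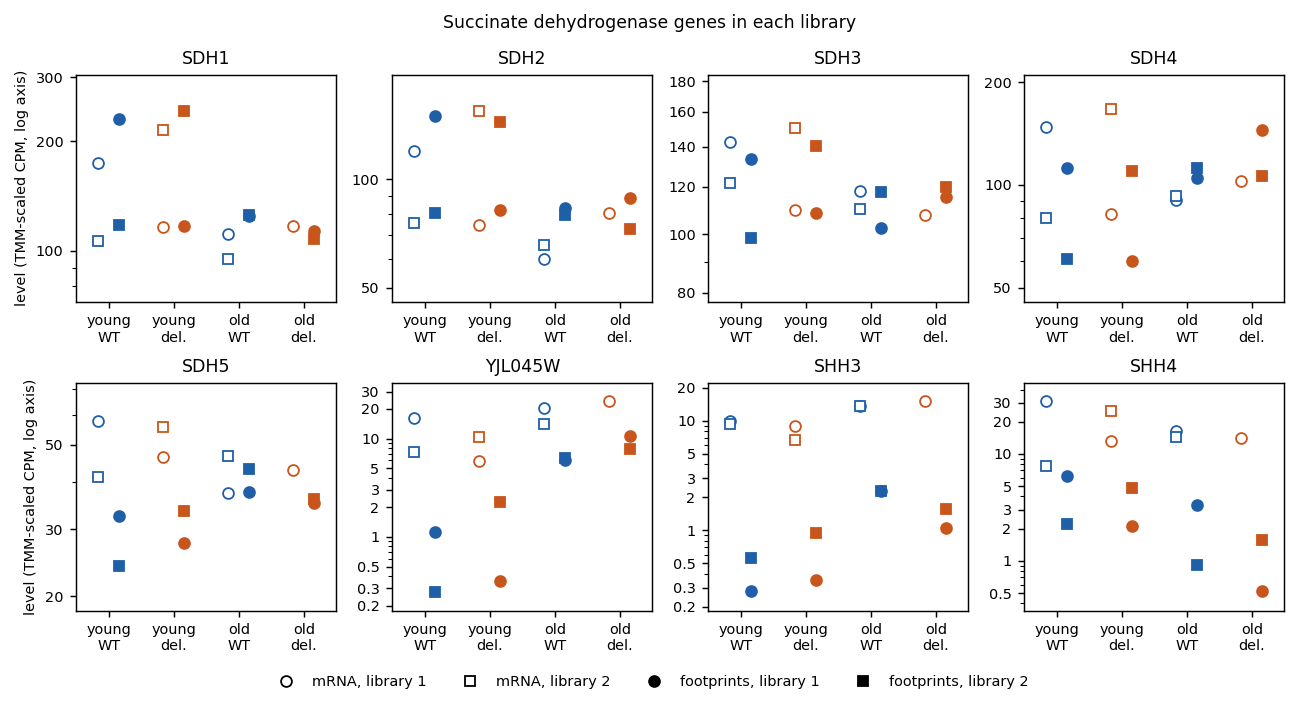
Level of each gene in each library, as TMM-scaled CPM on a log axis, by age and strain, with mRNA in open and footprints in filled symbols. SDH1 and SDH2 split the young libraries of both strains into high and low, while YJL045W footprints were below 2.3 CPM in every young and above 6 CPM in every old library.

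The catalytic subunits had lower mean levels in old than in young cells. The young libraries were unlike each other, and no age difference passed the test. SDH1 mRNA was 174 and 106 CPM in young and 112 and 94.95 CPM in old wild-type cells, 116 and 215 CPM in young deletion cells and 117 CPM in the single old deletion library. SDH1 footprints were 231 and 118 CPM in young and 125 and 125 CPM in old wild type, and 117 and 242 CPM in young and 113 and 108 CPM in old deletion cells. In each strain 1 young library of SDH1 was high and the other lay at the level of the old cells, so that wild-type groups overlapped and deletion footprints did not, as for 31.9% of tested genes. The log2 fold change of SDH1, old against young, was −0.44 (SE 0.36, edgeR adjusted p 0.514) for wild-type mRNA. For footprints it was −0.48 (SE 0.40, edgeR adjusted p 0.488) in wild type and −0.70 (SE 0.41, edgeR adjusted p 0.249) in the deletion strain. Without wild-type young library 1 the wild-type footprint log2 fold change was 0.084.

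SDH2, the iron-sulfur subunit, followed SDH1 closely. Its mRNA was 119.7 and 75.8 CPM in young and 60.0 and 65.9 CPM in old wild type, and 74.9 and 155 CPM in young deletion cells with 80.7 CPM in the old library. SDH2 footprints were 150.1 and 80.8 CPM in young and 83.4 and 79.5 CPM in old wild type, and 82.0 and 144 CPM in young and 88.8 and 73.0 CPM in old deletion cells. Both old wild-type mRNA libraries lay below both young ones, as for 27.8% of tested genes, while the footprint groups overlapped in both strains. The SDH2 log2 fold change with age was −0.63 (SE 0.38, edgeR adjusted p 0.388) for wild-type mRNA, −0.50 (SE 0.35, edgeR adjusted p 0.412) for wild-type footprints and −0.49 (SE 0.36, edgeR adjusted p 0.354) for deletion footprints. Across the 8 footprint libraries the log2 levels of SDH1 and SDH2 had r = 0.98, a description of libraries that share depth, age and lysates.

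The anchor subunits did not behave alike. SDH3 footprints varied least, at 133 and 98.6 CPM in young and 103 and 117 CPM in old wild type, and 109 and 140.5 CPM in young and 116 and 119.7 CPM in old deletion cells. Its mRNA was 142 and 122 CPM in young and 118 and 110.3 CPM in old wild type, with 109.9 and 150.6 CPM in young deletion cells and 108 CPM in the old library. The footprint groups of SDH3 overlapped, and the log2 fold change was −0.08 in both strains (95% interval −0.56 to 0.41 in wild type).

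SDH4, whose mRNA is a known target of Cth2, had mRNA levels in old cells inside the young range. SDH4 mRNA was 148 and 79.8 CPM in young and 90.5 and 92.5 CPM in old wild type, and 82.3 and 167 CPM in young deletion cells with 103 CPM in the old library. SDH4 footprints were 112 and 60.4 CPM in young and 105 and 112 CPM in old wild type, and 59.8 and 109.7 CPM in young and 145 and 106 CPM in old deletion cells. Ages overlapped in both strains, and among the old footprint libraries only deletion library 1 lay well above the young maximum of 112 CPM. The log2 fold change of footprints was 0.33 (SE 0.37, edgeR adjusted p 0.610) in wild type and 0.55 (SE 0.38, edgeR adjusted p 0.322) in the deletion strain, and that of wild-type mRNA was −0.31 (SE 0.41, edgeR adjusted p 0.683).

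SDH5, the assembly factor, resembled SDH4. Its mRNA was 57.8 and 41.1 CPM in young and 37.3 and 46.8 CPM in old wild type, and 46.4 and 55.6 CPM in young deletion cells with 42.9 CPM in the old library. SDH5 footprints were 32.4 and 24.0 CPM in young and 37.5 and 43.2 CPM in old wild type, and 27.6 and 33.5 CPM in young and 35.2 and 36.0 CPM in old deletion cells. All 4 old footprint libraries lay above all 4 young ones, as was so for 19.8% of the 5308 genes tested. The log2 fold change was 0.52 (SE 0.20, edgeR adjusted p 0.187) in wild type and 0.22 (SE 0.20, edgeR adjusted p 0.469) in the deletion strain. Averaged over strains it was 0.37 (SE 0.14, edgeR adjusted p 0.0884), which did not pass either.

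YJL045W, the paralogue of the flavoprotein, was the member with a footprint change that passed. Its footprints were 1.13 and 0.279 CPM (4 and 1 counts) in young and 6.01 and 6.34 CPM (29 and 28 counts) in old wild type. In the deletion strain they were 0.354 and 2.28 CPM (1 and 12 counts) in young and 10.5 and 7.83 CPM (20 and 25 counts) in old cells. Every old library thus exceeded every young one, as for 19.8% of genes, at counts so low that the young level is known only roughly. Averaged over both strains, YJL045W footprints rose 7.01-fold with age, a log2 fold change of 2.81 (SE 0.47, edgeR adjusted p 0.00794). That average was added after the data were seen, and the gene passed the filter on low counts through the old libraries.

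In the deletion strain alone the rise of YJL045W was 5.82-fold, a log2 fold change of 2.54 (SE 0.62, edgeR adjusted p 0.0363). That call was lost without old library 1 (edgeR adjusted p 0.174), without old library 2 (0.152), with replicate number as a block (0.0863) and with the deletion libraries alone in the fit (0.0755). In wild type the log2 fold change was 3.08 (SE 0.72, edgeR adjusted p 0.0733), and DESeq2 called it (adjusted p 0.0222). The averaged rise passed under each of the alternatives run and with each library left out, at log2 fold changes from 2.46 to 3.80.

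No change of YJL045W mRNA passed. The level was 16.02 and 7.29 CPM in young and 20.6 and 14.2 CPM in old wild type, and 5.88 and 10.5 CPM in young deletion cells. The single old deletion library held 24.3 CPM, 2.97 times the mean of the young deletion libraries, with no replicate. The wild-type groups overlapped, and the log2 fold change was 0.61 (SE 0.46, edgeR adjusted p 0.478).

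The paralogues of the anchors had few footprints. SHH3 mRNA was 10.1 and 9.28 CPM in young and 13.7 and 13.7 CPM in old wild type, and 8.98 and 6.67 CPM in young deletion cells with 15.04 CPM in the old library. In wild type both old mRNA libraries of SHH3 exceeded both young ones, as for 30.1% of genes. The wild-type log2 fold change of SHH3 mRNA was 0.50 (SE 0.29, edgeR adjusted p 0.362). Its footprint counts were 1 and 2 in young and 11 and 10 in old wild type, and 1 and 5 in young and 2 and 5 in old deletion cells, too few to pass the filter on low counts. SHH4 mRNA was 31.1 and 7.74 CPM in young and 16.2 and 14.5 CPM in old wild type, and 13.3 and 25.1 CPM in young deletion cells with 14.1 CPM in the old library. SHH4 footprint counts were 22 and 8 in young and 16 and 4 in old wild type, and 6 and 25 in young and 1 and 5 in old deletion cells. The log2 fold change of its footprints, −0.96 (SE 0.76) for wild type and −1.63 (SE 0.95) for deletion cells, did not pass in edgeR, at adjusted p values of 0.461 and 0.253.

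**Figure D2:**
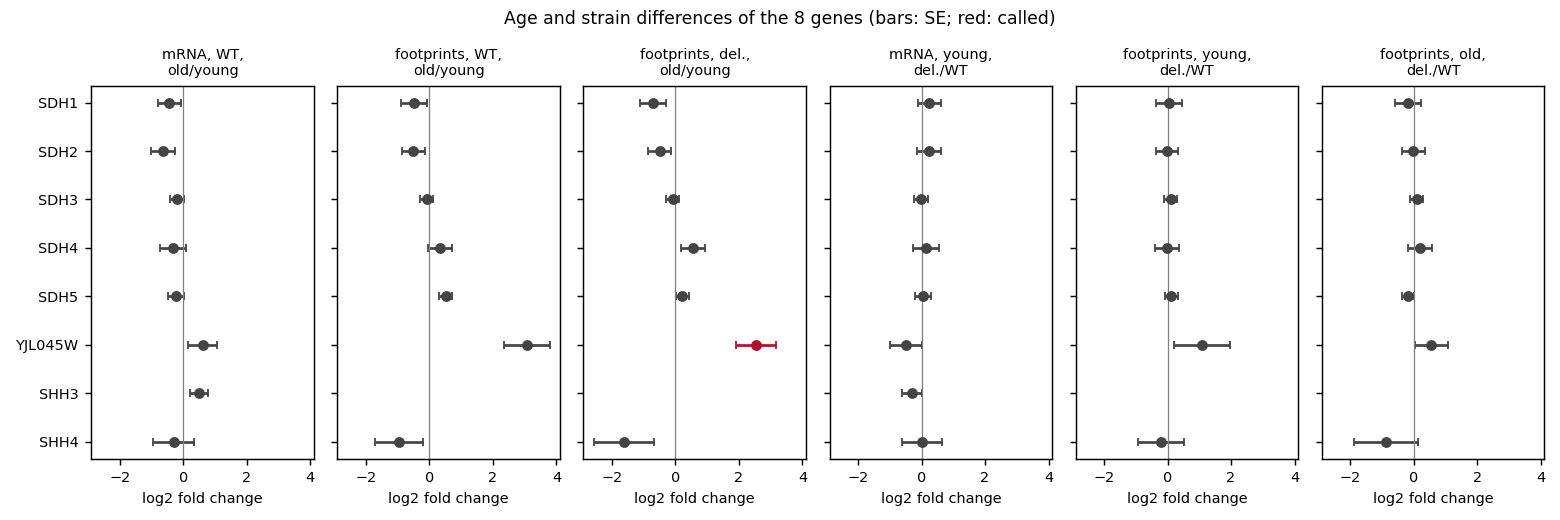
Log2 fold change of each gene in 6 comparisons, with bars of 1 SE, red where edgeR called the gene. YJL045W stood apart in both footprint comparisons with age, at 3.08 for wild type and 2.54 for deletion cells, and SHH3 has no footprint value because it was filtered.

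Counted over the 8 genes, none was called for wild-type mRNA with age, where edgeR called 0.951% of 5991 genes, and the 8 all had an unadjusted p above 0.05. Their median log2 fold change was −0.27, against 0.00 for all genes. For wild-type footprints, 0 of the 7 tested genes were called by edgeR and 1 by DESeq2, against 2.98% of 5308 genes in edgeR and 6.01% in DESeq2, with 2 of the 7, SDH5 and YJL045W, at an unadjusted p under 0.05. In deletion footprints 1 of 7 was called, against 17.2% of all genes, and 9.16% in the same direction. Averaged over strains 1 of 7 was called, against 31.2% of all genes, and 16.4% were called higher.

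The ratio of footprints to mRNA within a lysate was higher in all 3 old than in all 4 young lysates for 3 of the 8 members, SDH4, SDH5 and YJL045W, as for 16.1% of 5275 genes. The footprint level alone, in all 4 old against all 4 young libraries, separated SDH5 and YJL045W, as for 19.8% of 5308 genes. SHH3, filtered from that test, was separated only narrowly, at 1.05 CPM or more in old and 0.95 CPM or less in young libraries. SDH4 gave 0.755 and 0.758 in young wild type and 0.726 and 0.658 in young deletion cells, then 1.15 and 1.21 in old wild type and 1.41 in the 1 old deletion lysate with both assays. The ratio of SDH5 was 0.561 and 0.583 in young wild type and 0.594 and 0.602 in young deletion cells, then 1.01 and 0.924 in old wild type and 0.821 in old deletion cells. For both genes the 4 young lysates agreed closely, including those whose mRNA levels differed most, and all 3 old lysates were higher. YJL045W had 0.0704 and 0.0382 in young wild type, 0.0601 and 0.218 in young deletion cells, 0.292 and 0.445 in old wild type and 0.432 in old deletion cells.

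SDH1, SDH2 and SDH3 showed no such step, with ratios of 0.969 to 1.32, 0.928 to 1.39 and 0.808 to 1.07 over all 7 lysates and overlapping ages. SHH3 ran from 0.0281 to 0.167 and SHH4 from 0.0373 to 0.288, both from few footprints and with overlapping ages.

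**Figure D3:**
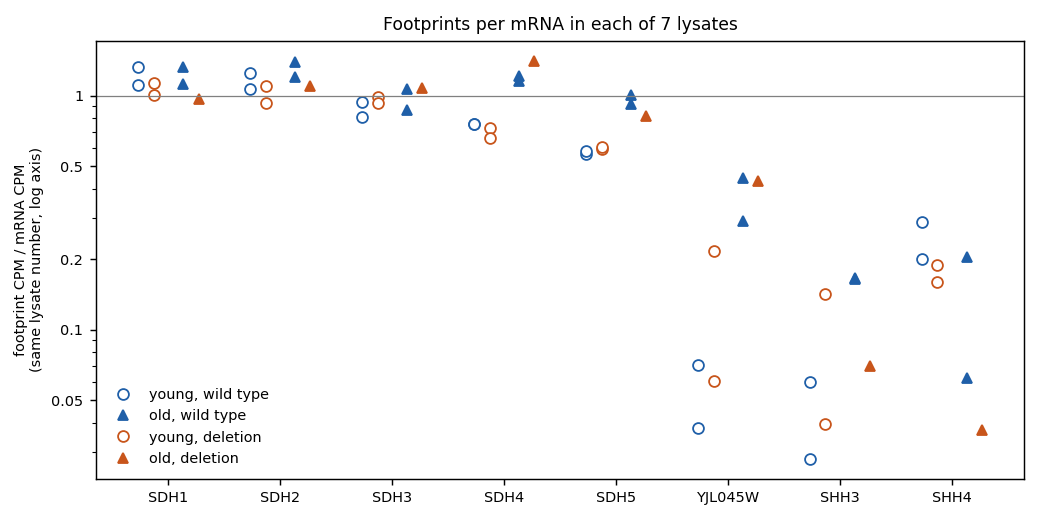
Footprint CPM divided by mRNA CPM in each of the 7 lysates with both assays, on a log axis, with young lysates as circles and old ones as triangles. Old lysates lie above young ones for SDH4, SDH5 and YJL045W, and ages overlap for SDH1, SDH2, SDH3, SHH3 and SHH4.

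Translational efficiency, the footprint level relative to mRNA, was tested as the interaction of assay and age. Without a block edgeR called 0 of the 8 genes in wild type, against 0.0661% of 6050 genes, and DESeq2 and limma also called 0. SDH5, YJL045W and SHH3 had an unadjusted p under 0.05. Both assays of a lysate share its deviations, so the lysate was also fitted as a replicate block. Then 3 of the 8 were called, against 6.79% of all genes, and 3.64% were called higher. The efficiency of SDH4 rose 1.58-fold (log2 fold change 0.66, SE 0.18, edgeR adjusted p 0.0150), that of SDH5 1.71-fold (0.77, SE 0.24, edgeR adjusted p 0.0354) and that of YJL045W 5.85-fold (2.55, SE 0.71, edgeR adjusted p 0.0172).

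None of these wild-type calls held with any 1 library left out, which leaves a single lysate at that age. The edgeR adjusted p then ran from 0.0912 to 0.265 for SDH4, at log2 fold changes of 0.60 to 0.69, from 0.110 to 0.290 for SDH5, at 0.70 to 0.84, and from 0.0646 to 0.225 for YJL045W, at 2.23 to 3.08.

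Averaged over both strains, edgeR without a block called 0 of the 8 genes, against 2.31% of all genes, with SDH5 and YJL045W below 0.05 before adjustment. With the lysate block 3 were called, against 20.5% of all genes, and 11.0% were called higher. The efficiency of SDH4 rose 1.81-fold (log2 fold change 0.86, SE 0.15, edgeR adjusted p 6.81e-06), that of YJL045W 3.82-fold (1.93, SE 0.51, edgeR adjusted p 0.00333) and that of SDH5 1.54-fold (0.62, SE 0.20, edgeR adjusted p 0.0188). SDH4 and YJL045W were called with each of the 14 libraries left out, at log2 fold changes of 0.65 to 0.87 and 1.69 to 2.59. SDH5 was called in 5 of the 14, with an edgeR adjusted p of up to 0.0768. The 14 did not include the single old deletion RNA-seq library. With the block, the old deletion side of this average rests on the single old deletion lysate with both assays. The average was added after the data were seen. The values of the other subunits were −0.06 for SDH1 (95% interval −0.35 to 0.23), 0.17 for SDH2 (−0.14 to 0.47) and 0.17 for SDH3 (−0.12 to 0.46).

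Levels of different genes were compared per kilobase of coding sequence, relative to SDH1 in the same library. In footprints the subunits were not equal: the median ratio over 8 libraries was 2.84 for SDH3 (1.86 to 3.58), 2.38 for SDH4 (1.59 to 4.50) and 1.62 for SDH2 (1.43 to 1.88). SDH5 lay near SDH1, at 1.06 (0.543 to 1.36), and the ranges of SDH2, SDH3 and SDH4 overlapped their neighbours in that order. The paralogues were far lower, at 0.0702 for SHH4, 0.0291 for YJL045W and 0.0228 for SHH3. In mRNA the same median ratios over 7 libraries were 3.05 for SDH3, 2.86 for SDH4, 1.65 for SDH2 and 1.44 for SDH5, and the paralogues stood higher, at 0.456 for SHH4, 0.284 for SHH3 and 0.0929 for YJL045W.

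The footprint ratio of SDH4 to SDH1 did not overlap between ages, although neither gene's own change passed the test and the ratio itself was not tested. For 25.0% of genes the level relative to SDH1 was higher in every old than in every young library. The SDH4 ratio ran from 1.59 to 1.81 in the 4 young and from 2.95 to 4.50 in the 4 old libraries, while in mRNA it ran from 2.50 to 3.001 in young and from 2.86 to 3.43 in old libraries. SDH5 footprints relative to SDH1 ran from 0.543 to 0.927 in young and from 1.18 to 1.36 in old libraries. SDH2 relative to SDH1 ran from 1.43 to 1.68 in young and from 1.52 to 1.88 in old libraries, so the catalytic pair overlapped. The YJL045W footprint level was 0.00239 to 0.00950 of that of SDH1 in young and 0.0487 to 0.0935 in old libraries. It remained a small share of the footprints of flavoprotein genes at both ages.

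Between the strains, no member passed the threshold. For mRNA in young cells edgeR called 0 genes of 5991 (0%), with 99 genes and none of the 8 at an unadjusted p under 0.05, and DESeq2 called 0. Deletion against wild type, log2 fold changes ran from −0.48 for YJL045W to 0.24 for SDH1. For SDH4 it was 0.13, with a 95% interval of −0.85 to 1.11. For footprints in young cells edgeR called 0 genes (0%), with 92 at an unadjusted p under 0.05 and none of them among the 8, and DESeq2 called 1 gene. Values ran from −0.21 for SHH4 to 1.08 for YJL045W and was −0.02 for SDH4 (95% interval −0.91 to 0.87).

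In old cells, where TIS11 was abundant in wild type, edgeR called 0 genes in footprints (0%), with 270 at an unadjusted p under 0.05, none of them among the 8. DESeq2 called 22 and limma 71 genes, with 0 of the 8. The log2 fold change was −0.18 for SDH1 (95% interval −1.14 to 0.78), −0.01 for SDH2 (−0.86 to 0.83), 0.10 for SDH3 (−0.39 to 0.58) and 0.21 for SDH4 (−0.68 to 1.097). YJL045W had 0.55 (−0.68 to 1.77). The single old deletion RNA-seq library had 1.12 times the mean old wild-type mRNA level for SDH4, 1.28 times for SDH2 and 1.40 times for YJL045W, with no replicate. The rise or fall with age was not shown to differ between strains: edgeR called 0 genes for that difference in footprints (0%), with 152 at an unadjusted p under 0.05 and none of the 8, and DESeq2 called 4. The difference was 0.23 for SDH4 (95% interval −1.03 to 1.48) and −0.54 for YJL045W (−2.87 to 1.80).

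Translational efficiency in young cells gave 0 called genes between strains in edgeR (0%), where 107 had an unadjusted p below 0.05. The lysate block gave 4 genes, none among the 8. In the blocked fit SDH4 had −0.16 (95% interval −0.53 to 0.20). YJL045W had 1.48 (−0.29 to 3.26), from footprint counts of 1 to 12.

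Genes of related steps placed the YJL045W rise among others in footprints. A list for the handling of succinate and fumarate held 6 genes. In wild type 2 of the 6 were called, against 2.98% of all genes: ICL1, isocitrate lyase, which makes succinate in the glyoxylate cycle, at a log2 fold change of 3.96 (edgeR adjusted p 0.0202), and MLS1, malate synthase of that cycle, at 2.72 (edgeR adjusted p 0.0353). In the deletion strain 3 were called, against 17.2% of all genes: ICL1 at 3.49, DIC1, the mitochondrial dicarboxylate carrier, at 1.80 and MLS1 at 1.77. The carrier SFC1, which exchanges succinate for fumarate, was called besides these over both strains, at 2.21 (edgeR adjusted p 0.0239), where 31.2% of all genes were called. The list's median was 1.57 for wild type and 1.78 for deletion cells, against 0.01 and 0.00 for all genes. Of its genes averaging 10 CPM or more, the lowest was OSM1, a fumarate reductase, at −0.10 in wild type, and FRD1, its cytosolic counterpart, at 0.14 in the deletion strain.

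ICL1 footprints were 8.46 and 4.74 CPM in young and 103 and 103 CPM in old wild type, while its mRNA was 20.7 and 27.6 CPM in young and 37.3 and 32.6 CPM in old wild type. Over both strains its efficiency was called without a block, at a log2 fold change of 3.05 (edgeR adjusted p 0.0149). Its deletion footprints were 2.83 and 13.7 CPM in young and 114 and 88.1 CPM in old cells, so that old and young libraries did not overlap in either strain. The glucose-repressed markers, a list without ICL1, also had called genes in footprints. Of 9 tested, edgeR called 2 in the deletion strain (median log2 fold change 1.26), against 17.2% of all genes. These were ADH2, alcohol dehydrogenase, at 2.14 and PCK1, a gluconeogenic enzyme, at 1.66. In that strain 5 of the 9 were higher and 4 lower, with HXT7 at −2.64. In wild type the median was 0.93 and the values did not pass, with ADH2 at 1.83 (edgeR adjusted p 0.136). There 6 were higher and 3 lower, with HXT7 at −1.56. Averaged over strains 4 were called higher, among them ADH2 at 1.98, against 16.4% of all genes. HXT7 was called lower at −2.10, where 31.2% of all genes were called in either direction. In wild-type mRNA 1 of 10 markers was called higher with age, against 0.951% of all genes in either direction. Of the 10, 7 were higher and 3 lower, with HXT7 at −1.86. The part of these genes in the rise of YJL045W and ICL1 was not tested.

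The other TCA cycle genes moved both ways. Of 15, none was called in wild-type footprints, which at means of 10 CPM or more ran from −0.69 for CIT1, the mitochondrial citrate synthase, to 0.48 for ACO1, aconitase, while CIT3, with a lower mean, was at 1.24. In the deletion strain, where 17.2% of all genes were called, CIT2, the peroxisomal citrate synthase (1.56), and CIT3, a minor citrate synthase (2.86), were called higher. KGD2, a subunit of α-ketoglutarate dehydrogenase (−0.99), was called lower. MDH1, malate dehydrogenase, was lowest at −1.09 and was not called there. It was called over both strains, at −0.88, as were IDH1, a subunit of isocitrate dehydrogenase, at 0.53, CIT2 at 0.92, CIT3 at 2.05 and KGD2 at −0.78. Over both strains 31.2% of all genes were called. The list's median was 0.14 for wild type and 0.04 for deletion cells.

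Of 4 genes for complex II assembly, none was called in either strain alone. SDH6, an assembly factor acting on the iron-sulfur subunit, was lowest in wild type, at −0.57 in footprints and −1.25 in mRNA, and SDH8, which assists Sdh1, was lowest in deletion footprints, at −0.55. SDH7 was highest among genes averaging 10 CPM or more, at 0.16 and −0.18. FLX1, a mitochondrial flavin transporter with a lower mean, was at 0.62 and 0.98. It was called over both strains, at 0.80 (edgeR adjusted p 0.0436), where 31.2% of all genes were called.

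In the TIM22 translocase, of which Sdh3 is a part, the genes differed in their values. TIM22, the channel subunit, was called in wild type at 0.95 (edgeR adjusted p 0.0350) and in the deletion strain at 1.30 (edgeR adjusted p 0.00717), and TIM54 in the deletion strain at 1.04, with 0.76 and no call in wild type. TIM18, the SDH4 relative in that complex, was at −0.03 and 0.03, near the −0.08 of SDH3. No gene of these 4 lists was called in wild-type mRNA.

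**Figure D4:**
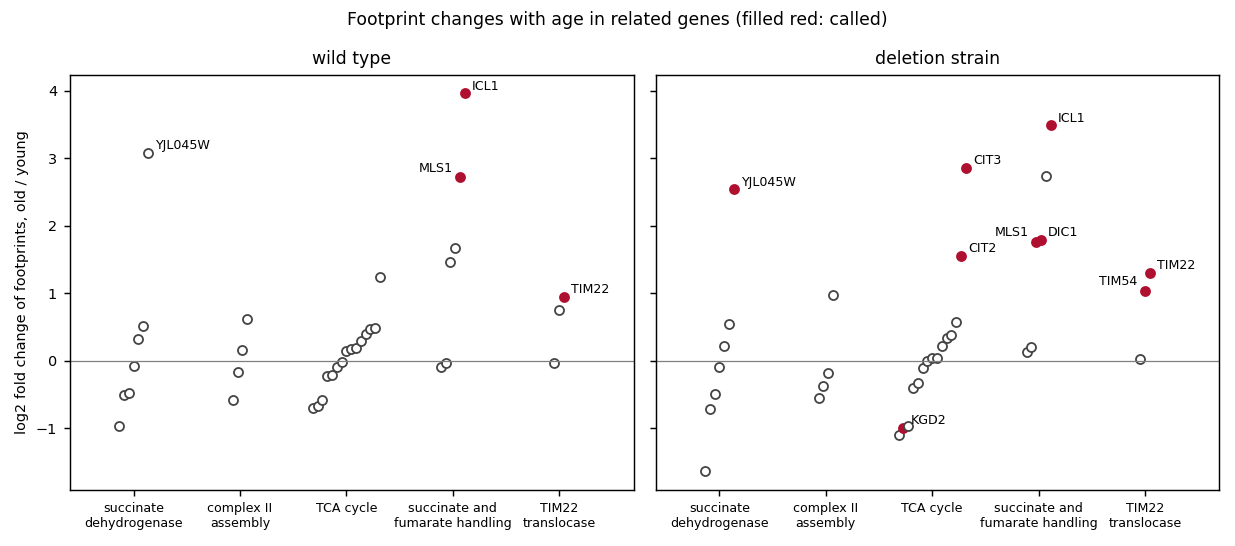
Log2 fold change of footprints, old against young, for the succinate dehydrogenase genes and 4 related lists, wild type at left and deletion strain at right, with filled red points for genes called by edgeR. ICL1, at 3.96 and 3.49, and YJL045W, at 3.08 and 2.54, had the highest values of these lists in wild type, and called genes are named.

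The genes whose log2 level followed the mean of SDH1, SDH2, SDH3 and SDH4 most closely were listed per assay, leaving out genes whose mean was below 10 CPM. In mRNA, over 7 libraries and 5323 genes, they were IMP2 (a mitochondrial inner membrane peptidase subunit, r = 0.994), CMK2 (a calmodulin-dependent kinase, 0.991), RCN1 (a calcineurin regulator, 0.990), HAL5 (a kinase, 0.988) and CRZ1 (the calcineurin-dependent transcription factor, 0.988). In footprints, over 8 libraries and 4598 genes, they were PLB1 (a phospholipase, r = 0.992), YNL195C (0.989), GYP7 (a Rab GTPase-activating protein, 0.986), CMK2 (0.984) and STF1 (a regulator of the ATP synthase inhibitor, 0.982). These are the highest values of many over few libraries that share lysates, and the young libraries, which split into high and low, are 4 of the libraries in each assay.

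Among the members, mRNA levels of the 4 subunits went together, at r = 0.85 to 0.96 over 7 libraries. In footprints SDH4 had r = 0.24 to SDH1, 0.29 to SDH2 and 0.55 to SDH3 over 8 libraries. Its r was 0.79 to SDH5 and 0.84 to YJL045W, a gene with 1 to 29 footprint counts per library.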

How the data were processed

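Raw counts and gene lengths per library were deposited by the authors, per the file headers, with no normalisation. Cutadapt 3.4, Bowtie 1.1.2, STAR 2.7.9a and build R64 are named in the submitters' processing notes. The counting program and the use of strand are not given in the sources used here. Per the labels' protocols, footprints came from the monosome peak after RNase I, poly(A) mRNA was hydrolysed, and both assays used aliquots of 1 lysate. Of 7127 identifiers, 6047 matched R64.

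Counts were tested with edgeR 4.0.16 in R 4.3.3 (TMM factors, filterByExpr, robust quasi-likelihood, 1 mean per group): 7 RNA-seq libraries and 5991 genes, 8 footprint libraries and 5308 genes, and 15 libraries and 6050 genes for translational efficiency. A gene was called at a Benjamini-Hochberg adjusted p under 0.05 over all genes. There were 9 comparisons, and 2 averaged over strains were added after the data were seen. SEs were derived from the F statistic. Log2 levels used a prior count of 2. DESeq2 1.42.0 and limma 3.58.1 (voom, a weight per age) were alternatives, and the edgeR fit was tested on simulated data. Sequences were read from R64 with Python 3.11.15 and aligned with Biopython 1.88.

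Replicate differences of both assays of 1 lysate correlated across genes (r = 0.779 in young wild type, 0.826 in young deletion, 0.176 in old wild type), so the lysate, given by the labels' protocol and number, pairs them. The labels do not say that libraries came from separate cultures, so p-values measure the spread between these samples. Floors cover counting error only.

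The members and lists were chosen with earlier results of these data known. All 8 members and TIS11 are named, and from other lists the called genes and, at a mean of at least 10 CPM, the highest and lowest. For likeness, the 5 genes with the highest r per assay are named.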

Additional observations from a re-analysis of the deposited data

How the results depend on the processing

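Of 315 values under alternatives, 291 kept their direction and side of the threshold, 2 became weaker, 21 stronger and 1 reversed, SHH4 mRNA in wild type, at 0.13 with limma. In wild-type footprints with age, DESeq2 called 1 member instead of 0. In deletion footprints 1 was called, but 0 with replicate number as a replicate block, 0 with the compared groups alone, and 0 to 1 with a library left out. Numbers do not pair groups (r from −0.868 to −0.000642). The crossed replicate block within young libraries was chosen after seeing the data. It called 2 members in wild-type mRNA, against 2119 of 5991 genes. In footprints it called 5 members in wild type, 4 in the deletion strain and 6 over both strains. The same footprint fits called 2297, 2811 and 3278 of 5308 genes. Over both strains with a library left out, footprint log2 fold changes ran from −0.81 to −0.28 for SDH1 and −0.69 to −0.24 for SDH2. For YJL045W they ran from 2.46 to 3.80. SHH3, filtered from the reported fit, entered through old cells without young deletion library 2, at 2.09 from few counts. Efficiency with the lysate as replicate block gave 3 called members instead of 0 in wild type and 3 instead of 0 over both strains. The replicate block changed no other call of a member. The cause was not tested.

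Over all genes, calls in wild-type mRNA with age went from 57 to 0 with the replicate block and to 2119 with the crossed block within young libraries. Over alternatives they ranged from 46 to 2297 (158 in the reported fit) in wild-type footprints, 164 to 2811 (914) in deletion footprints and 1026 to 3278 (1656) over both strains. For strain, where the reported fits called 0, they reached 23 in young mRNA, 51 in young and 411 in old footprints, 185 for the difference in ageing and 4 in young efficiency. Efficiency with age ranged from 1 to 411 (4) in wild type and 123 to 1242 (140) over both strains. With 1 library left out, calls ranged from 1 to 15 in wild-type mRNA, 14 to 77 in wild-type, 46 to 1206 in deletion and 515 to 2001 in averaged footprints, 0 to 4 in wild-type and 17 to 168 in averaged efficiency, and were 0 in edgeR for strain.

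Of 250 values with 1 library left out, 220 kept their side, 2 became weaker, 3 stronger and 25 reversed. Wild-type footprints with age ran from −0.89 to 0.084 for SDH1, −0.89 to 0.0099 for SDH2, −0.28 to 0.16 for SDH3 and −0.054 to 0.84 for SDH4, and deletion footprints from −0.26 to 0.11 for SDH3. Wild-type mRNA with age ran from −0.70 to 0.20 for SDH4, −0.46 to 0.030 for SDH5 and −1.01 to 0.99 for SHH4. Between young strains, mRNA ran from −0.27 to 0.64 for SDH1 and −0.97 to 0.16 for YJL045W, footprints from −0.92 to 2.33 for YJL045W and −0.98 to 0.71 for SHH4, and efficiency from −0.72 to 0.36 for SDH2 and −0.44 to 2.85 for YJL045W. Old footprints of SHH4 between strains ran from −1.96 to 0.35. The strain difference in ageing ran from −0.29 to 0.73 for SDH4 and −1.72 to 0.60 for SHH4. A crossed block was not run for efficiency.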
